A study of Mus musculus with 4 samples.

Results

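Kinesins are motor proteins that walk along microtubules or take their ends apart. They are described here through all genes of the deposited table whose symbol is Kif with a number and at most 1 letter from a to c, or Kifc with a number. Kif3a and Kif3b, the main motors of intraflagellar transport, were left out. The rule found 39 of 55335 genes, and 37 of them passed the filter on low counts. By their textbook roles, 13 members work in the spindle or in cytokinesis (called mitotic here), 7 belong to cilia or centrioles, 12 carry cargo and 7 have other roles. The members, roles and gene lists were chosen with earlier results of these data known, so their shares set beside all genes are descriptions only. Poly(A) RNA of whole testes of mice at postnatal day 14 was sequenced in 2 Znhit1_KO and 2 CTRL libraries. The protein ZNHIT1 belongs to the SRCAP remodeller, which loads histone variant H2A.Z into chromatin. The series asks how its loss bears on pachytene gene expression and meiotic progression in males. For the allele, the driver of any Cre, the strain, the number of animals per library and what the controls carry, nothing is given in the sources used here. The design text speaks of germ cells, but the labels give the source as testis, and no sorting is described.

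A kinesin motor domain hydrolyses ATP and moves along, or destabilises, a microtubule. In dividing spermatogonia and in spermatocytes leaving prophase, spindle kinesins separate poles, align chromosomes and drive cytokinesis. In cilia and in the sperm tail, other kinesins carry cargo along the axoneme, sit on its central pair or set its length. Germ cells of juvenile testes have reached meiotic prophase at most and build no tail yet, although many tail genes are first transcribed in them.

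The start regions of 8 kinesin genes, picked for the motifs they hold, are shown. In these annotated windows mitotic and ciliary kinesins differed in how many held the motif TTTGAA, while the motifs GTTGCC and CCAAT occurred in both roles. Not shown are the ciliary Kif7 and Kif27, which lack GTTGCC, and the ciliary Kif17, which holds it. The mitotic Kif18a and Kif2b, whose windows lack TTTGAA, are not shown either. Sequences are RefSeq promoter windows on GRCm38.p6, printed 5′ to 3′ on the strand of the gene, from 100 bases before to 30 bases after the annotated start. Capitals mark the cell cycle homology region TTTGAA, which reads TTCAAA on the other strand, and the CCAAT box, which reads ATTGG there. They also mark the X-box core GTTGCC and, in Kif9 and Kif24, its extension by 4 further bases. For Kif9 the annotated start was chosen so that GTTGCC lies before it, at base -27. From another annotated start of Kif9, GTTGCC lies after the start, at base 10. In Kif6 they mark the looser core GTTNCC, read on the other strand as GGGAAC.
Kif9 (chr9:110476894-110477023, strand plus): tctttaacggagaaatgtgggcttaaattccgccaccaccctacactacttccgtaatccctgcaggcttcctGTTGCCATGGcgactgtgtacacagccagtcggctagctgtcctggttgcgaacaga
Kif6 (chr17:49615072-49615201, strand plus): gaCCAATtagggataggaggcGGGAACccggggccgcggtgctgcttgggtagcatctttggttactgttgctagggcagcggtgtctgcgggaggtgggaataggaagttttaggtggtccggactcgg
Kif24 (chr4:41464819-41464948, strand minus): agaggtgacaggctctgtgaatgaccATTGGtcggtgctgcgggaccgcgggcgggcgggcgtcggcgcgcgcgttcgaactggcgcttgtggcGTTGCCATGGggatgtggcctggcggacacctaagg
Kif20b (chr19:34922258-34922387, strand plus): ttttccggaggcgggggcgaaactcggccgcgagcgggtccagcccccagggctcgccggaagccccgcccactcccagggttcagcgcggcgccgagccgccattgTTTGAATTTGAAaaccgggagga
Kif15 (chr9:122950981-122951110, strand plus): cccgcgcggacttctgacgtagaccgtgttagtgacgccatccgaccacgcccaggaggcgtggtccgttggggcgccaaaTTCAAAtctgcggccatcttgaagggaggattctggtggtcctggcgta
Kif11 (chr19:37376282-37376411, strand plus): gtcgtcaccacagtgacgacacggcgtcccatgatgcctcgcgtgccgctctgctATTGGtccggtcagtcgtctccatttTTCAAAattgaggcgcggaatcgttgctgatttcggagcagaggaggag
Kif22 (chr7:127042391-127042520, strand minus): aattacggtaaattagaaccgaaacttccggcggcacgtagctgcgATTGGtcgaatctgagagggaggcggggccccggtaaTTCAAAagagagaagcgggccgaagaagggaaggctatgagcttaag
Kifc1 (chr17:33890604-33890733, strand minus): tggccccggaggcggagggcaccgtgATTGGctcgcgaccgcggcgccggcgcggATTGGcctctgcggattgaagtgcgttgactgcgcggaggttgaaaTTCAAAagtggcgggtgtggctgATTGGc
TTTGAA is the element through which the DREAM and MYB-MuvB complexes time late cell cycle genes, and X-boxes are bound by RFX factors at many ciliary genes. Windows of 300 bases (250 before and 50 after the start) were found for 30 of the 39 members and searched on both strands. The 4 members with more than 1 window were counted if any window held the motif, whereas the share of all windows is per window. The windows with matches of Kif1a, Kif2c, Kif4, Kif14, Kif17 and Kif27 lie wholly inside the gene as located in GENCODE, at inner starts. That of Kif17 runs from 138262001 to 138262300, while the gene begins at 138250435 on the plus strand. The letters TTTGAA occurred in the window of 10 of 12 mitotic kinesins, against 1 of 6 ciliary, 1 of 7 cargo and 1 of 5 other kinesins, and in 17.9% of all 32851 windows. Within 30 bases of the start, a limit chosen after the hits were seen, they occurred in 8 of the 12 mitotic kinesins (Kif4, Kif11, Kif15, Kif18b, Kif20b, Kif22, Kif23 and Kifc1), in 1 of the other 18 (Kif26b) and in 2.90% of all windows. Kif20b holds a pair of them in a row. The ciliary member with the letters is Kif27. CCAAT occurred in 8 of 12 mitotic, 3 of 6 ciliary, 1 of 7 cargo and 1 of 5 other kinesins, against 37.4% of all windows.

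GTTGCC occurred in 3 of 6 ciliary kinesins (Kif9, Kif17 and Kif24), in 2 of 12 mitotic, 3 of 7 cargo and 1 of 5 other kinesins, against 12.5% of all windows. Its extended form, also chosen after the sequences were seen, occurred in Kif9 and Kif24 among the 30 members and in 0.563% of all windows. The looser GTTNCC was found in 4 of 6 ciliary, 5 of 12 mitotic, 5 of 7 cargo and 3 of 5 other kinesins, against 45.3% of all windows, and AACNG, a core of MYB sites, in 6 of 6 and 10 of 12, against 80.3%. GTTGCC and its extension are forms of GTTNCC and overlap it wherever they occur. These matches describe the letters of the windows and say nothing of binding in these testes.

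Kinesins of all roles were expressed in the juvenile testis. On the deposited TPM scale (transcript abundance scaled to transcript length and library), 30 of the 37 tested members averaged at least 10 over the libraries. The median member averaged 24.2 TPM, and Kif26b (0.333) and Kif2b (0.809) were the lowest. The highest were Kif5b, a conventional kinesin that carries organelles, and Kif20a, a cytokinesis motor, which averaged 117.4 and 117.3 TPM. The mitotic kinesins together reached 523.9 and 548.0 TPM in Znhit1_KO libraries, against 619.8 and 574.5 TPM in CTRL libraries. The 4 motile cilium kinesins together reached 38.6 and 41.7 TPM in Znhit1_KO libraries, against 60.7 and 80.4 TPM in CTRL libraries. The motile cilium members thus made up 3.09% and 3.49% of all kinesin TPM in Znhit1_KO libraries, and 4.49% and 6.67% in CTRL libraries.

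**Figure D1:**
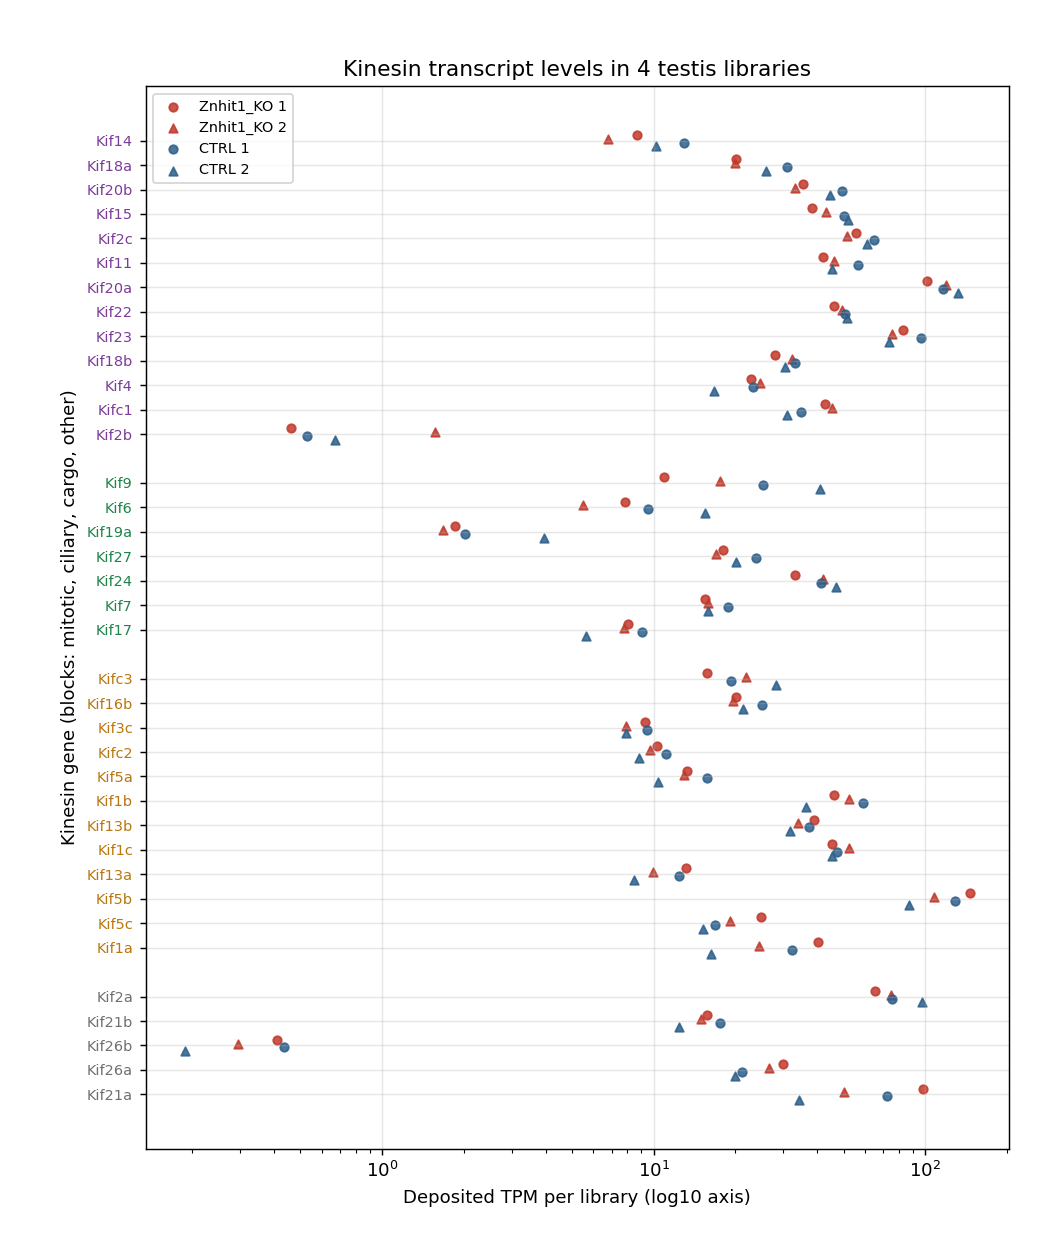
Deposited TPM of the 37 tested kinesin genes (log10 axis) in each library, with Znhit1_KO libraries in red and CTRL libraries in blue, circles for replicate 1 and triangles for replicate 2. Genes run down in blocks of mitotic, ciliary, cargo and other roles. Kif9 stood at 10.9 and 17.5 TPM in Znhit1_KO libraries, left of 25.2 and 41.0 TPM in CTRL libraries, while most cargo kinesins overlapped.

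The remaining 2 members were near the limit of detection. Kif12 was listed at 0 in every library. A value of 3 counts, taken here as a rough upper limit for a count of 0, would be 0.0190 to 0.0232 CPM (counts scaled to library size). This limit holds for counted reads, and the deposited values were taken for estimated counts, so the limit may be higher. Kif28 had counts of 20 and 2 in Znhit1_KO libraries and of 0 and 4 in CTRL libraries.

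Total estimated counts lay between 129531714 and 157790457 per library, and the kinesins took 0.243% and 0.229% of them in Znhit1_KO libraries and 0.256% and 0.226% in CTRL libraries. Znhit1 itself stood at 3.15 and 2.14 CPM in Znhit1_KO libraries, against 17.3 and 31.9 CPM in CTRL libraries, so the labels match the targeted gene. Sertoli cell markers were the most abundant marker list, with summed levels of 10319 and 8416 TPM in Znhit1_KO libraries and 7559 and 6788 TPM in CTRL libraries, 9 of 11 markers being higher in both Znhit1_KO libraries (81.8%, against 21.8% of all genes tested). Markers of pachytene spermatocytes summed to 699.6 and 1037 TPM in Znhit1_KO libraries and to 1384 and 2496 TPM in CTRL libraries, with 6 of 6 lower in both Znhit1_KO libraries (21.3% of all genes were). Of 5 spermatid markers, Prm1, Prm2 and Tnp1 did not pass the filter on low counts, while Acrv1 and Spaca1 did. Acrv1 had 7 to 17 counts per library, and Spaca1 stood at 7.94 and 7.71 TPM in Znhit1_KO libraries and at 8.69 and 9.20 TPM in CTRL libraries. A lower level in whole testis can come from fewer cells of a type or from less RNA per cell, and these cannot be told apart here.

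Across the family, no kinesin passed an adjusted p of 0.05 in edgeR's quasi-likelihood test, in which 0 of 24116 genes (0%) passed. DESeq2 called 1 of 37 kinesins, against 4.07% of all genes. With limma-voom 0 kinesins were called, and 0 of all genes. At an unadjusted edgeR p under 0.05 there were 5 lower kinesins (Kif9, Kif6, Kif14, Kif18a and Kif20b; 13.5% of 37, against 7.75% of all genes) and 1 higher (Kif26a; 2.70%, against 2.99%). On the CPM scale both Znhit1_KO values lay below both CTRL values for 13 of the 37 (35.1%, against 21.3% of all genes), and above them for 4 (10.8%, against 21.8%). A negative log2 change was found for 22 of 37, against 46.9% of all genes. On the TPM scale 13 were lower and 3 higher, 12 and 3 of them the same as on the CPM scale. Kif11 and Kif4 overlapped there, and Kif2a was lower without overlap there alone. The authors' deposited table marks 1 kinesin down, Kif9, and 0 up, where it marks 3.22% of all its genes down and 0.277% up. The median log2 change was -0.12 over the 37 kinesins and 0.031 over all genes tested.

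**Figure D2:**
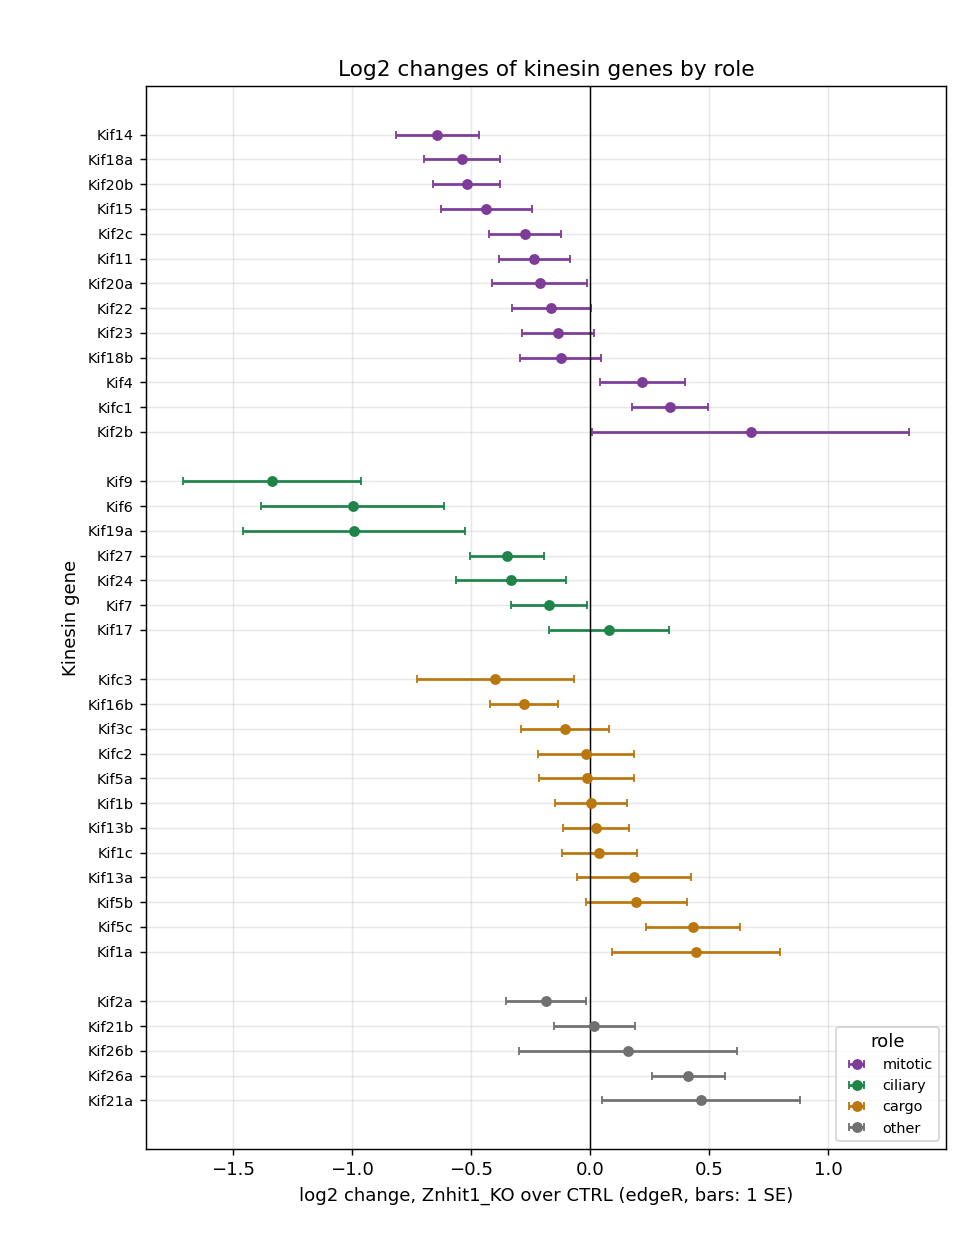
Log2 change of each tested kinesin gene, Znhit1_KO over CTRL, from edgeR, with bars of 1 standard error, in blocks by role. The ciliary block runs from -1.34 (Kif9) to 0.079 (Kif17), the mitotic block from -0.64 (Kif14) to 0.67 (Kif2b), and the cargo block from -0.40 (Kifc3) to 0.44 (Kif1a).

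Of the ciliary kinesins, those of motile cilia had the lowest log2 changes. For Kif9, Kif6, Kif19a and Kif27 alike, no Znhit1_KO value reached a CTRL value. With Kif7, 5 of 7 ciliary kinesins were lower without overlap (71.4%, against 21.3% of all genes). In turn, 0 were higher without overlap (21.8% of all genes were). Kif9, which sits on the central pair of the axoneme and is needed for normal sperm motility, stood at 11.99 and 18.7 CPM in Znhit1_KO libraries, against 27.3 and 50.4 CPM in CTRL libraries. The groups did not overlap, but CTRL replicate 2 was well above CTRL replicate 1. Kif9 had a log2 change of -1.34 (SE 0.38) with an edgeR adjusted p of 0.335, while the authors' deposited table gives -1.34 with an adjusted p of 0.0128. Without CTRL replicate 1 the edgeR adjusted p was 0.0298 (2.95% of all genes were then called), and without CTRL replicate 2 the log2 change was -0.83 with an adjusted p of 0.794. The gene lies on chromosome 9 (110476958 to 110525179, plus strand, mm10), and none of its 50-base stretches occur in transcripts of other genes.

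Kif6, a motor of motile cilia, on chromosome 17 (49615136 to 49909847, plus strand), had 9.41 and 6.90 CPM in Znhit1_KO libraries, against 10.95 and 21.7 CPM in CTRL libraries. Here CTRL replicate 2 stood alone above the other libraries. Its log2 change was -0.998 (SE 0.39; edgeR adjusted p = 0.458), and -0.42 without CTRL replicate 2. Kif19a, which takes apart microtubule ends and limits the length of motile cilia, was scarce, at 2.05 and 2.04 CPM in Znhit1_KO libraries, against 2.43 and 5.75 CPM in CTRL libraries. Its log2 change of -0.99 (SE 0.47; edgeR adjusted p = 0.525) was -0.25 without CTRL replicate 2, so most of the difference lay in that library. Kif27, a partner of the kinase STK36 in building motile cilia, behaved differently: it had 34.3 and 33.6 CPM in Znhit1_KO libraries, against 43.2 and 43.4 CPM in CTRL libraries. Its replicates nearly coincided, and the log2 change of -0.35 (SE 0.15; edgeR adjusted p = 0.503) stayed between -0.40 and -0.35 with any 1 library left out.

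The 3 other ciliary kinesins were less clearly apart. Kif24, which acts at the mother centriole to hold back cilium formation, had 60.0 and 81.4 CPM in Znhit1_KO libraries and 76.2 and 101.9 CPM in CTRL libraries, with overlap (log2 change -0.33, SE 0.23). Leaving out CTRL replicate 2 or Znhit1_KO replicate 1 brought Kif24 to -0.11 or -0.16, and leaving out Znhit1_KO replicate 2 or CTRL replicate 1 to -0.60 or -0.53. Kif7, a regulator of Hedgehog signalling at the cilium tip, had 27.7 and 28.7 CPM in Znhit1_KO libraries and 32.2 and 31.5 CPM in CTRL libraries. Its groups were close but apart (log2 change -0.17, SE 0.16), and 16.3% of its 50-base stretches occur in other transcripts, mostly of an overlapping gene. Kif17, which carries cargo in cilia and in mouse testis moves the transcriptional coactivator encoded by Fhl5, had 9.55 and 9.52 CPM in Znhit1_KO libraries and 10.5 and 7.60 CPM in CTRL libraries (log2 change 0.079, SE 0.25). Both Znhit1_KO values lay between the CTRL values.

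Of 15 genes that work with ciliary kinesins, a list chosen with earlier results of these data known, 12 had a negative log2 change (80.0%, against 46.9% of all genes). The median of the 15 was -0.76. In both Znhit1_KO libraries 8 were lower (53.3%, against 21.3% of all genes) and 3 higher (20.0%, against 21.8%). With edgeR 0 passed after adjustment over all genes, and 7 were lower at an unadjusted p under 0.05 (46.7%, against 7.75%). DESeq2 called 5 lower, Hydin, Spag16, Cfap46, Cfap221 and Stk36, where it called 4.07% of all genes in either direction. The authors' deposited table marks 4 down, these without Stk36, and 3.22% of all its genes. Hydin, a central pair protein, had 12.04 and 15.9 CPM in Znhit1_KO libraries, against 50.4 and 86.2 CPM in CTRL libraries, a log2 change of -2.29 (SE 0.32). Spag16, also of the central pair, had 1.68 and 4.38 CPM in Znhit1_KO libraries, against 13.7 and 31.3 CPM in CTRL libraries (log2 change -2.89, SE 0.62). Both had larger log2 changes than any kinesin.

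Stk36, the kinase that KIF27 binds, had 22.4 and 24.4 CPM in Znhit1_KO libraries, against 37.7 and 46.4 CPM in CTRL libraries (log2 change -0.85, SE 0.19). Ccp110, which caps centrioles and is held there by KIF24, had 239.3 and 302.7 CPM in Znhit1_KO libraries, against 374.2 and 544.3 CPM in CTRL libraries (log2 change -0.76, SE 0.24, and -0.46 without CTRL replicate 2). Neither overlapped between groups. Crem, a regulator of spermatid genes, had 17.8 and 21.7 CPM in Znhit1_KO libraries, against 28.4 and 49.7 CPM in CTRL libraries (log2 change -0.99, and -0.53 without CTRL replicate 2). Mphosph9, another centriole protein, had 128.1 and 114.9 CPM in Znhit1_KO libraries and 122.2 and 131.2 CPM in CTRL libraries. The Hedgehog factors Gli2 (0.37) and Gli3 (0.38) had positive log2 changes.

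**Figure D3:**
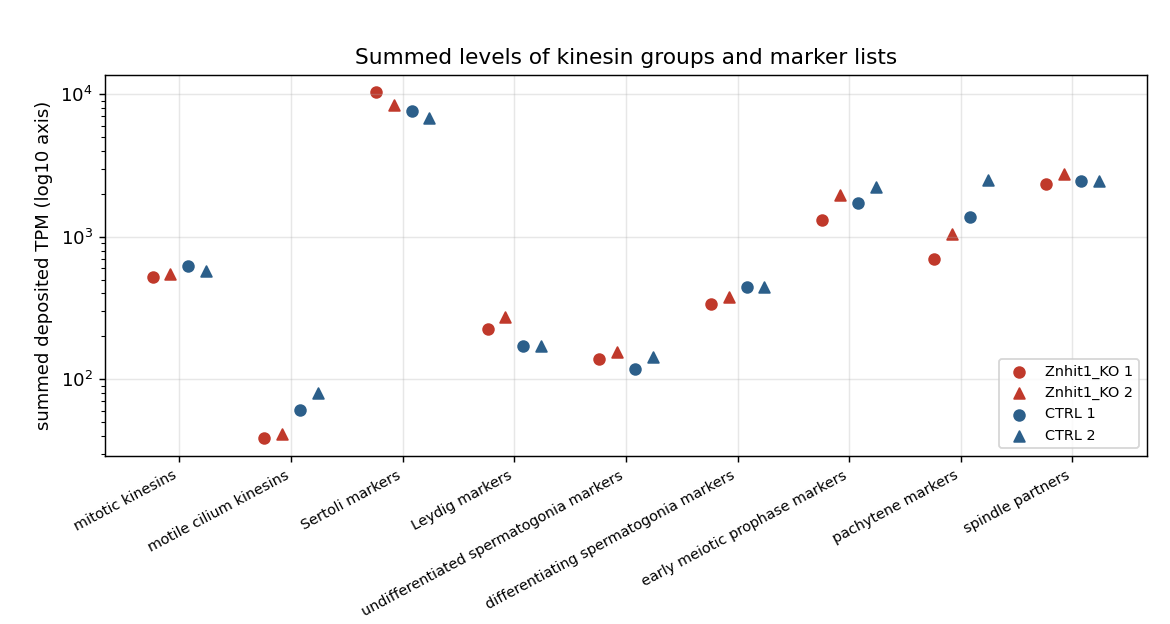
Summed deposited TPM (log10 axis) of 2 kinesin groups, 6 marker lists and the spindle partner list in each library, Znhit1_KO in red and CTRL in blue. The motile cilium kinesins (38.6 and 41.7 TPM in Znhit1_KO, 60.7 and 80.4 TPM in CTRL) and the pachytene markers (699.6 and 1037 TPM in Znhit1_KO, 1384 and 2496 TPM in CTRL) were both lower in Znhit1_KO, and CTRL 2 was the highest library of both.

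Summed TPM of motile cilium kinesins and of pachytene markers was ordered alike over the libraries. CTRL replicate 2 was highest, CTRL replicate 1 next and Znhit1_KO replicate 1 lowest in both. Among these kinesins Kif9 alone kept this order. In Kif6, Kif19a and Kif27, Znhit1_KO replicate 2 was the lowest library. Kif27 also had 23.9 TPM in CTRL replicate 1, against 20.1 TPM in CTRL replicate 2. Sums of early prophase markers overlapped, at 1300 and 1962 TPM in Znhit1_KO libraries and 1732 and 2240 TPM in CTRL libraries. CTRL replicate 2 was again highest and Znhit1_KO replicate 1 lowest, and 6 of 6 had a negative log2 change (median -0.27). Markers of differentiating spermatogonia summed to 337.2 and 375.6 TPM in Znhit1_KO libraries, against 444.2 and 447.3 TPM in CTRL libraries. All 4 had a negative log2 change (median -0.13). Of 5 markers of undifferentiated spermatogonia, 4 had a positive one. The part of germ cell composition in the lower ciliary kinesins was not tested.

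Mitotic kinesins moved less and in both directions. Of the 13, 7 were lower (53.8%, against 21.3% of all genes) and 2 higher (15.4%, against 21.8%) with no overlap between groups. The log2 change was negative for 10, against 46.9% of all genes, and the median was -0.21. The cytokinesis motors were not alike. Kif14, which brings citron kinase to the midbody, had 24.4 and 21.003 CPM in Znhit1_KO libraries, against 36.3 and 34.6 CPM in CTRL libraries, a log2 change of -0.64 (SE 0.18; edgeR adjusted p = 0.327). Kif20b, which acts late in cytokinesis, had 73.2 and 70.3 CPM in Znhit1_KO libraries, against 100.8 and 104.9 CPM in CTRL libraries, a log2 change of -0.52 (SE 0.14; edgeR adjusted p = 0.325). In both genes the gap between groups was wider than that between replicates. Kif20a, which moves the chromosomal passenger complex to the spindle midzone, had 138.6 and 164.8 CPM in Znhit1_KO libraries and 150.8 and 200.9 CPM in CTRL libraries. Kif23, the motor of centralspindlin, had 95.1 and 88.9 CPM in Znhit1_KO libraries and 107.6 and 94.7 CPM in CTRL libraries. The last 2 overlapped between groups, and 31.2% of the 50-base stretches of Kif20a also occur in Cdc23.

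Among the motors that build the spindle, Kif15, which helps keep its poles apart, had 60.8 and 72.8 CPM in Znhit1_KO libraries, against 80.0 and 101.0 CPM in CTRL libraries (log2 change -0.44, SE 0.19, and -0.26 without CTRL replicate 2). Kif11, the main motor of pole separation, had 79.5 and 88.1 CPM in Znhit1_KO libraries, against 102.8 and 94.7 CPM in CTRL libraries (log2 change -0.24, SE 0.15). Both were lower without overlap on the CPM scale, Kif11 not on the TPM scale. Kif18a, which damps chromosome movements at metaphase and which male mice need for germ cell development, had 26.5 and 26.5 CPM in Znhit1_KO libraries, against 39.5 and 37.5 CPM in CTRL libraries. Its log2 change was -0.54 (SE 0.16; edgeR adjusted p = 0.354), between -0.58 and -0.50 with any 1 library left out. Its relative Kif18b, which trims astral microtubules, overlapped, with 35.3 and 41.6 CPM in Znhit1_KO libraries and 40.8 and 42.9 CPM in CTRL libraries.

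Kif2c, which takes apart microtubules at centromeres, had 59.8 and 56.2 CPM in Znhit1_KO libraries, against 66.9 and 73.5 CPM in CTRL libraries (log2 change -0.27, SE 0.15). Kif22, a motor on chromosome arms, had 37.8 and 39.8 CPM in Znhit1_KO libraries, against 40.4 and 46.5 CPM in CTRL libraries (log2 change -0.16, SE 0.17), with a range of -0.26 to -0.058 when either CTRL replicate was left out. Both differences were small, though the groups did not overlap. Kif2b, which in human cells acts on the spindle, was rare, at 0.411 and 1.40 CPM in Znhit1_KO libraries and 0.459 and 0.662 CPM in CTRL libraries. Its log2 change of 0.67 (SE 0.67) was -0.46 without Znhit1_KO replicate 2.

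The spindle kinesins Kifc1 and Kif4 were higher in both Znhit1_KO libraries. Kifc1, a minus-end motor that focuses spindle poles and in rodents also acts in spermatids, had 37.5 and 39.7 CPM in Znhit1_KO libraries, against 30.4 and 30.8 CPM in CTRL libraries. The replicates lay close together, with a log2 change of 0.34 (SE 0.16; edgeR adjusted p = 0.526). Of its 50-base stretches, 45.8% also occur in the near copy Kifc5b, so the division of reads between the 2 genes is uncertain; Kifc5b had 24.7 and 25.9 CPM in Znhit1_KO libraries and 21.8 and 25.2 CPM in CTRL libraries. Kif4, a chromosome motor of anaphase and the 1 member on the X chromosome, had 44.4 and 48.3 CPM in Znhit1_KO libraries, against 43.7 and 35.9 CPM in CTRL libraries. The group gap was narrow (log2 change 0.22, SE 0.18, 0.085 and 0.36 when CTRL replicates 2 and 1 were left out in turn, and 0.12 when Znhit1_KO replicate 2 was), it overlapped on the TPM scale, and 15.9% of its stretches also occur in Pdzd11.

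The partners of spindle kinesins did not move together either. Of 26 spindle, cytokinesis and cell cycle genes, 15 had a negative log2 change (57.7%, against 46.9% of all genes) and 11 a positive one, with a median of -0.10. In both Znhit1_KO libraries 8 were lower (30.8%, against 21.3%) and 3 higher (11.5%, against 21.8%). After adjustment over all genes 0 passed with edgeR (0% of all genes did) and 0 with DESeq2 (4.07% of all genes did). At an unadjusted edgeR p under 0.05, 1 was lower (3.85%, against 7.75%). The 1 was Cit, citron kinase, the partner of KIF14, with 94.7 and 90.0 CPM in Znhit1_KO libraries, against 114.8 and 125.8 CPM in CTRL libraries (log2 change -0.38, SE 0.14). Nuf2, of the outer kinetochore, had 45.5 and 54.7 CPM in Znhit1_KO libraries, against 57.7 and 82.2 CPM in CTRL libraries (log2 change -0.48, and -0.20 without CTRL replicate 2). Aurkb, the kinase of the passenger complex, was higher, with 28.4 and 33.0 CPM in Znhit1_KO libraries, against 22.6 and 24.4 CPM in CTRL libraries (log2 change 0.39, SE 0.18, and 0.24 without Znhit1_KO replicate 2). Racgap1, the partner of KIF23, and the proliferation gene Top2a overlapped, with log2 changes of -0.030 (SE 0.14) and -0.11 (SE 0.17), and so did Cdc20 (0.58, SE 0.34, between 0.12 and 0.98 with 1 library left out), the activator of the anaphase-promoting complex.

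Set against each other within a library, mitotic kinesins stood higher relative to ciliary kinesins in Znhit1_KO testes. The mean log2 CPM of the 13 mitotic members exceeded that of the 7 ciliary members by 1.32 and 1.42 in Znhit1_KO libraries, against 1.17 and 0.815 in CTRL libraries. This difference hardly depends on library scaling, and its absolute size mixes genes of unequal length, so that the libraries alone can be compared. It averaged 1.37 ± 0.068 in Znhit1_KO libraries and 0.993 ± 0.25 in CTRL libraries (SD, n = 2 each), a gap of 0.38. Leaving out CTRL replicate 2 gave a gap of 0.20, and leaving out CTRL replicate 1 one of 0.56. Against the 4 motile cilium members the difference was 1.93 and 2.08 in Znhit1_KO libraries, and 1.66 and 0.962 in CTRL libraries. No p is given, since the members were chosen with results of these libraries known.

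**Figure D4:**
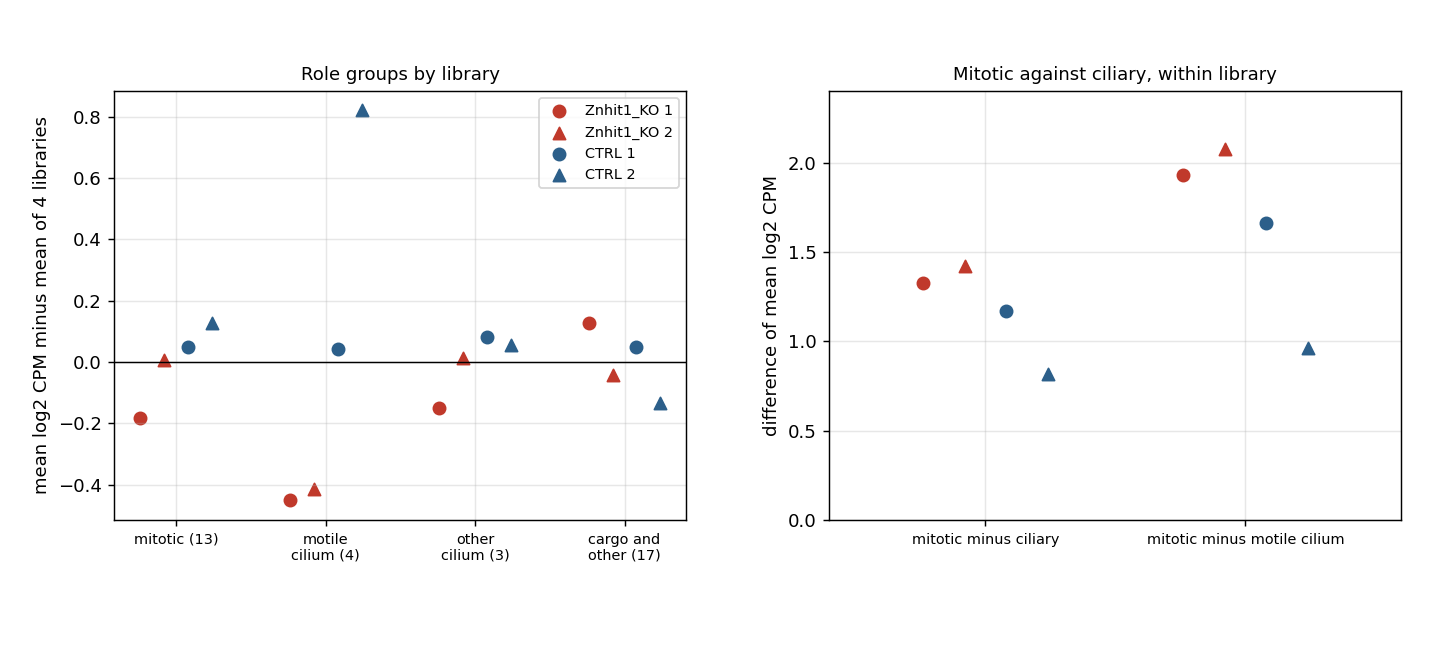
Left, mean log2 CPM of each kinesin role group in a library minus its mean over the 4 libraries. Right, mean log2 CPM of mitotic minus ciliary, and of mitotic minus motile cilium kinesins, within each library. The motile cilium group was at -0.45 and -0.41 in Znhit1_KO and at 0.043 and 0.82 in CTRL libraries, the widest spread of the 4 groups.

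Cargo kinesins and those of other roles were centred on no change. Their 17 tested members had a median log2 change of 0.025, with 6 negative and 11 positive. On the CPM scale 1 was lower (5.88%, against 21.3% of all genes) and 2 were higher (11.8%, against 21.8%) in both Znhit1_KO libraries. Kif16b, an endosome motor, was the lower one, with 48.3 and 48.1 CPM in Znhit1_KO libraries, against 59.0 and 58.0 CPM in CTRL libraries (log2 change -0.28, SE 0.14). Kif26a, a family member that does not hydrolyse ATP and acts in signalling, was higher, with 81.1 and 72.7 CPM in Znhit1_KO libraries, against 55.6 and 60.0 CPM in CTRL libraries. Its log2 change was 0.41 (SE 0.15; edgeR adjusted p = 0.448). Kif5c, a conventional kinesin, was the other, with 63.2 and 47.1 CPM in Znhit1_KO libraries, against 40.0 and 41.8 CPM in CTRL libraries (log2 change 0.43, SE 0.20, and 0.17 without Znhit1_KO replicate 1).

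The most abundant members of these roles did not part the groups on the CPM scale. Kif5b had 335.5 and 253.0 CPM in Znhit1_KO libraries and 288.9 and 225.7 CPM in CTRL libraries. Kif1b, which carries mitochondria and vesicle precursors, had 166.8 and 161.7 CPM in Znhit1_KO libraries and 177.0 and 150.8 CPM in CTRL libraries. For Kif1c and Kif13b, carriers of vesicles, the log2 changes were 0.038 (SE 0.16) and 0.025 (SE 0.14). Kif2a, a microtubule depolymeriser, had 122.7 and 140.7 CPM in Znhit1_KO libraries and 136.5 and 163.1 CPM in CTRL libraries, and 22.5% of its stretches also occur in Dimt1. On the TPM scale Kif2a was lower without overlap, at 65.2 and 74.9 TPM in Znhit1_KO libraries, against 75.1 and 97.3 TPM in CTRL libraries. Kifc3, a minus-end motor at cell junctions, had 18.7 and 26.8 CPM in Znhit1_KO libraries and 21.97 and 38.1 CPM in CTRL libraries. Kif21b (0.016, SE 0.17) and Kif26b (0.16, SE 0.46) had small log2 changes for their error.

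Of 14 kinesins outside the rule, light chains and adaptors, 4 were lower (28.6%, against 21.3% of all genes) and 0 higher (21.8% of all genes) in both Znhit1_KO libraries, with a median log2 change of -0.038. After adjustment over all genes edgeR passed 0 and DESeq2 called 1, Kifap3, against 0% and 4.07% of all genes. Kifap3, the subunit that links the KIF3 motor to its cargo, was also the 1 at an unadjusted edgeR p under 0.05 (7.14%, against 7.75% of all genes), with 39.3 and 42.7 CPM in Znhit1_KO libraries, against 62.0 and 83.3 CPM in CTRL libraries (log2 change -0.82, SE 0.20). Kif3a, its motor partner, had 80.2 and 91.0 CPM in Znhit1_KO libraries, against 94.4 and 117.7 CPM in CTRL libraries (log2 change -0.31, SE 0.18, and -0.14 without CTRL replicate 2). The light chain gene Klc2 (0.033, SE 0.15) and the adaptor gene Mapk8ip3 (0.035, SE 0.14) hardly differed, and Trak1, an adaptor for mitochondria, had 0.40 (SE 0.23), which was 0.089 without Znhit1_KO replicate 1 and 0.25 without CTRL replicate 2.

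**Figure D5:**
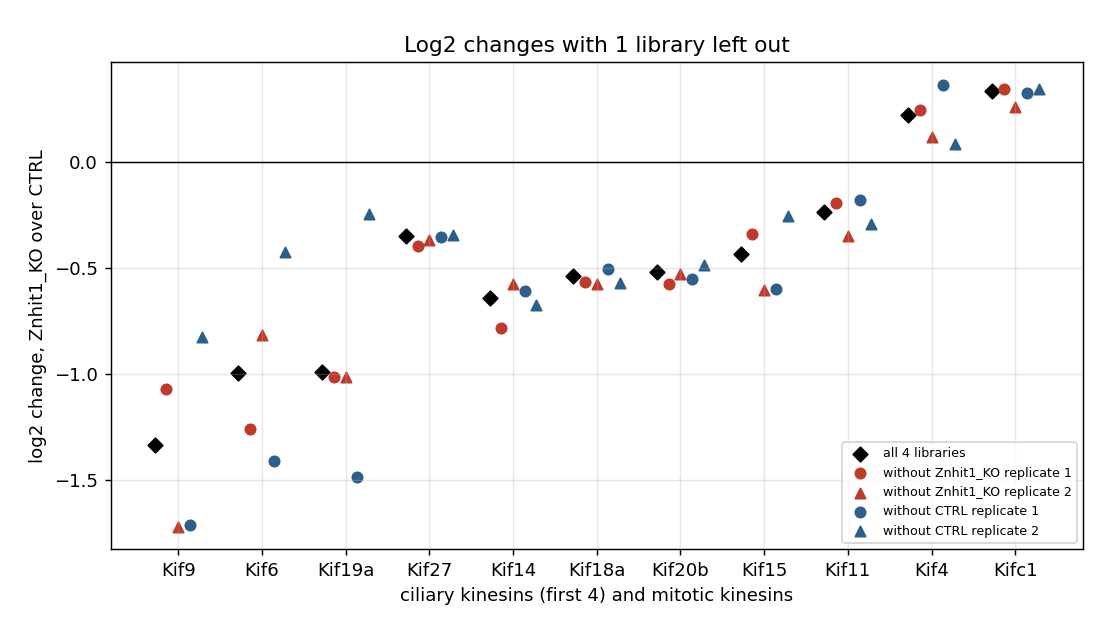
Log2 change, Znhit1_KO over CTRL, of 4 ciliary and 7 mitotic kinesins with all 4 libraries (black diamonds) and with 1 library left out (coloured points). Kif9, Kif6 and Kif19a spread widely and moved towards 0 without CTRL replicate 2 (-0.83, -0.42 and -0.25), whereas Kif18a, Kif20b and Kif27 hardly moved.

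Kinesins of both roles differed among themselves in how far they depended on 1 library. With 1 library left out, the log2 change of Kif9 ranged from -1.72 to -0.83, that of Kif6 from -1.41 to -0.42 and that of Kif19a from -1.49 to -0.25. Wide ranges were also found for the mitotic Kif2b (-0.46 to 1.27) and Kif20a (-0.41 to 0.0095). Narrower ones were found for the mitotic Kif14 (-0.79 to -0.58) and Kif20b (-0.58 to -0.49) and for the ciliary Kif7 (-0.24 to -0.16) and Kif27. None of these mitotic members passed an adjusted p of 0.05 in such a fit, in which 1 library stands alone in its group and is assumed to vary like the others.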

How the data were processed

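RNA was sequenced from 2 Znhit1_KO and 2 CTRL testes libraries, called independent biological replicates in the labels' protocols. The edgeR p-values set the difference between groups against the spread between these libraries, estimated with the help of all genes tested. The number of animals behind each library is not known. Per the submitters' processing notes, the tools were DESeq2 1.38.3, StringTie 2.2.1, HISAT2 2.2.1 and cutadapt 2.5, with build mm10; the sources used here do not give their roles, the annotation, how reads were counted, or strandedness, so reads of overlapping and antisense genes cannot be told apart. The deposited whole-number values, which sum to 129531714 to 157790457 per library, with a surplus of the value 4 (1109 genes in CTRL replicate 1, against 736 on average for 3 and 5), were taken for estimated counts made by the authors. Counting precision from them is overstated. The authors' deposited table gives TPM, base mean signal, log2 fold changes, Wald scores and p-values for 25236 genes; its TPM and log2 values were used as described values.

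Counts were tested with the edgeR 4.0.16 quasi-likelihood test in R 4.3.3 (TMM, filterByExpr, 24116 genes, Benjamini-Hochberg over all; no covariate), checked on simulated data, with DESeq2 1.42.0, limma 3.58.1 voom, other scalings, no filter, another prior count, a replicate block and libraries left out as alternatives. CPM values include TMM scaling; the prior count for log2 CPM was 2. SEs came from the F statistic. Locations and shares of 50-base stretches of the longest transcript found in transcripts of other genes came from GENCODE M21 (mm10), promoters from RefSeq. Every member may be named; values in every library were to be given for up to 4 members of highest mean TPM and 4 of lowest p per role, and up to 3 of each per pathway list, and were added for further members. Gli2, Gli3 and Kifc5b were named after their values were seen. The members, roles and lists were chosen with earlier results of these data known.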

Additional observations from a re-analysis of the deposited data

How the results depend on the processing

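All results kept their side of the threshold with DESeq2 size factors in edgeR, total count scaling, no low-count filter, limma-voom and a prior count of 0.5, and the median shift of all genes under the 2 scalings was -0.010 and 0.023. DESeq2 called 1027 genes, 1 kinesin (Kif9) and Znhit1 (log2 change -3.23). With 1 library left out, calls ranged from 0 to 754 for all genes and from 0 to 1 for kinesins (Kif9, without CTRL replicate 1), and Znhit1 from -3.59 to -2.71. Medians ranged from -0.35 to -0.20 for mitotic, -0.60 to -0.25 for ciliary and -0.061 to 0.17 for cargo and other kinesins, and the mitotic minus ciliary gap from 0.20 to 0.56. Signs changed with 1 library left out for genes whose change was small or whose replicates lay far apart, with ranges of -0.41 to 0.0095 (Kif20a), -0.46 to 1.27 (Kif2b), -0.13 to 0.32 (Kif17), -0.74 to 0.053 (Kifc3), -0.074 to 0.035 (Kifc2), -0.18 to 0.18 (Kif5a), -0.11 to 0.12 (Kif1b), -0.064 to 0.044 (Kif13b), -0.10 to 0.12 (Kif1c), -0.11 to 0.37 (Kif13a), -0.058 to 0.38 (Kif5b), -0.12 to 0.17 (Kif21b), -0.27 to 0.77 (Kif26b), -0.13 to 0.97 (Kif21a), -0.077 to 0.15 (Klc2), -0.066 to 0.063 (Mapk8ip3), -0.093 to 0.033 (Racgap1) and -0.30 to 0.00077 (Top2a). Kifc2 was at 0.00036 with total count scaling, and Kif1b at -0.0084 with DESeq2 size factors and -0.0028 with DESeq2. The cause was not tested. Same-numbered libraries deviated together over genes (r = 0.42 across 24116 genes, which are not independent), but the number is shared by label alone. With the replicate block, which leaves 1 residual degree of freedom, edgeR called 2737 genes and 7 kinesins (Kif1a, Kif9, Kif14, Kif15, Kif18a, Kif20b and Kif21a), and Znhit1 passed at -3.17.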

Other observations

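Kinesin transcripts also differed between libraries of the same group. Of the 37 tested members, 25 had replicate differences of the same sign in both groups, 14 with replicate 1 higher in both and 11 with replicate 2 higher in both. In 5 the difference exceeded 0.5 on the log2 scale in both. The shares of all genes with these patterns were not computed. Same-numbered libraries deviated together over all 24116 tested genes too (r = 0.42, and 0.53 over the kinesins). Kif21a, an axonal motor that also restrains microtubule growth, had 235.5 and 121.4 CPM in Znhit1_KO libraries and 167.2 and 91.1 CPM in CTRL libraries. Kif1a, a carrier of vesicle precursors best known from neurons, had 110.8 and 70.6 CPM in Znhit1_KO libraries and 85.5 and 47.8 CPM in CTRL libraries. For both, the first library of each group was the higher, and the replicate gap was wider than the gap between group means. The Sertoli marker Inha was ordered the same way, at 902.8 and 510.6 TPM in Znhit1_KO libraries and 627.5 and 337.1 TPM in CTRL libraries. In Inha and in the marker Amh, as in these kinesins, CTRL replicate 1 stood above Znhit1_KO replicate 2. Of the 11 Sertoli markers, 9 lacked this order. Their CPM values were higher in Znhit1_KO with no overlap between groups. The part of Sertoli cell share in these kinesin levels was not tested.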
